A study of Homo sapiens with 6 samples.

Results

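The GIMAP genes encode GTPases of immunity-associated proteins, a family of small GTP-binding proteins, and in humans they lie side by side in a single cluster on chromosome 7. The array covered 7 of them, GIMAP1, GIMAP2, GIMAP4, GIMAP5, GIMAP6, GIMAP7 and GIMAP8, of 19721 named genes in all. Each had 1 catalogue probe, so that the family made up 7 of 57176 probes, found by matching the RefSeq accession of each catalogue probe to a gene symbol. The filter on dim signals was passed by 6 of the 7 probes. The family was chosen by the knockdown and control values of these same arrays, in which GIMAP6 and other members were lower after knockdown. All differences between knockdown and control given for its members are therefore a description, with no test.

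Expression was profiled in the human cell line REH, derived from a B-cell precursor acute lymphoblastic leukemia (BCP-ALL), which has an ETV6/RUNX1 translocation and, per the study, lost its other ETV6 allele. All 6 samples were REH cells transduced with a lentiviral short hairpin RNA (shRNA) vector that also carries green fluorescent protein (GFP), and per the study's methods GFP-positive cells were sorted 72 hours after transduction. In 3 samples the shRNA targeted the fusion (knockdown), and in the other 3 it was labelled as non-targeting (control), which per the methods was another ETV6 shRNA that did not target the fusion transcript. A single cell line and 1 targeting shRNA were used, so that the values describe this line and this vector.

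GIMAP proteins are known mainly from lymphocytes, in particular T cells, where several members affect survival during development and after activation. They share a GTP-binding domain that is related to that of the septins, and most are anchored in or recruited to intracellular membranes. GIMAP6 binds the ATG8-type protein GABARAPL2 and has been linked to autophagy, GIMAP5 is needed for long-lived lymphocytes in rodents, and GIMAP7 can stimulate the GTPase activity of GIMAP2 on lipid droplets.

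To show the regulatory sequence beside GIMAP6 and the 3 members next to it on one side, the 250 bases before the annotated start of GIMAP8, GIMAP7, GIMAP4 and GIMAP6 are given here from RefSeq (GRCh38.p14), each read 5′ to 3′ on the strand of its gene. Capitals mark the letters TGTGG on either strand (CCACA on the opposite one), the core of the RUNX binding motif.
GIMAP8 (chr7:150450380-150450629, plus strand): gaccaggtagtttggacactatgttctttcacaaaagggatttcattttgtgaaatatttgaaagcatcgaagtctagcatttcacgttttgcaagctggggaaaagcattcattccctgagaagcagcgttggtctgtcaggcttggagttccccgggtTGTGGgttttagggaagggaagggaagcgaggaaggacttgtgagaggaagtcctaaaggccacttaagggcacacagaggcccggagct
GIMAP7 (chr7:150514622-150514871, plus strand): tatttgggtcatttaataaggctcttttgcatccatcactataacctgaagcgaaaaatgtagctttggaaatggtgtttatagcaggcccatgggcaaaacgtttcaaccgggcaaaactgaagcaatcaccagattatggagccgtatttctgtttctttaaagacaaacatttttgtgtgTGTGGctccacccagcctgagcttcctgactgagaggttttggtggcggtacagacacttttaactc
GIMAP4 (chr7:150567140-150567389, plus strand): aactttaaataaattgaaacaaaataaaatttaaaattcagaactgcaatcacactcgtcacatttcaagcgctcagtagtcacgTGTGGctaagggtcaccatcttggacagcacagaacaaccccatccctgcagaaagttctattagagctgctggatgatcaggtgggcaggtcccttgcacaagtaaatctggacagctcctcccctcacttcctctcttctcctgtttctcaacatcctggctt
GIMAP6 (chr7:150632386-150632635, minus strand): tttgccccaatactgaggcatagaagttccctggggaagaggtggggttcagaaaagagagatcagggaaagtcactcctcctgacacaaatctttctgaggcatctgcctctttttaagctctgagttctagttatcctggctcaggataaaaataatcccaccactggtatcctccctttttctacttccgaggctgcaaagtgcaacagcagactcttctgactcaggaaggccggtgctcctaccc

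In these windows GIMAP8, GIMAP7 and GIMAP4 each held 1 TGTGG match, 90, 67 and 165 bases before the start, and GIMAP6 held none. Over the full RefSeq window, which adds the 50 bases after the start, 6 of the 7 GIMAP promoters held TGTGG on either strand, as did 51.4% of 35116 human promoters. This core was chosen after the sequences had been seen. The fuller RUNX letters TGTGGT or TGCGGT, of which the first contains the core, were in 0 of 7 GIMAP promoters against 19.6% of all promoters, and the ETS letters CCGGAA were in 0 of 7 against 17.2%. A match is a description of the letters and not a binding site, and a missing match says only that these letters are not in the window.

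The longest stretch shared by any pair of GIMAP upstream windows had 14 bases and was common to GIMAP1 and GIMAP7, shown here in capitals within the 100 bases before each start.
GIMAP1 (chr7:150716513-150716612, plus strand): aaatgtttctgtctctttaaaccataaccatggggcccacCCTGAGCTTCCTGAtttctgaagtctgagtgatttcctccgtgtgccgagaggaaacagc
GIMAP7 (chr7:150514772-150514871, plus strand): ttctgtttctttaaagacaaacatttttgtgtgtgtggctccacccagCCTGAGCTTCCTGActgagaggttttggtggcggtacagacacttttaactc

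The shared stretch began 60 bases before the GIMAP1 start and 52 bases before the GIMAP7 start. It was found in 3 of 35116 promoters, and the remaining one was that of GIMAP1-GIMAP5, a readthrough gene whose window is identical to that of GIMAP1. The next longest stretch had 10 bases, between GIMAP2 and GIMAP5. The GC content of the 250-base windows ran from 39.6% in GIMAP2 to 49.2% in GIMAP1, against a median of 58.0% over all promoters.

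Median raw intensity was 66 to 75 per array, against 42.3 to 48.0 for the negative control spots, and correlations between arrays ran from 0.986 to 0.996 across probes. All 6 arrays were on 1 slide with 1 scan, with control replicates 1 and 2 in its first row and control replicate 3 in the second row beside all knockdown arrays. The B-cell precursor identity of the line was checked with markers. CD79A, PAX5, EBF1, DNTT and RAG1 were well above background on all 6 arrays, whereas both VPREB1 probes failed the filter. Each group had n = 3 arrays, and this number limits the precision.

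ETV6, the targeted gene, was measured first. Probe A_33_P3356325 had normalized log2 values of 7.92, 8.05 and 8.37 in control and of 7.50, 7.46 and 7.29 in knockdown, so that every knockdown array lay below every control array. ETV6 thus had a difference of -0.70 (SE 0.14) that missed the threshold (limma adjusted p = 0.0570). The place of this probe within ETV6 was not determined, so that it may or may not read the fusion transcript. The other ETV6 probe, A_33_P3210343, stayed at background throughout. The study itself assessed silencing of the fusion by Western blot and RT-qPCR, and reported that the fusion was silenced.

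Over all 28997 retained probes, 451 (1.56%) were called at a limma adjusted p under 0.05, 336 of them lower (1.16%) and 115 higher in knockdown. Over these probes the median change was -0.004 (log2). Among the GIMAP genes, all 6 retained probes were lower in knockdown and 5 of them were called, namely GIMAP6, GIMAP8, GIMAP4, GIMAP7 and GIMAP1. The same 5 were called with the replicate number as a block, a fit that called 3.06% of all retained probes. For all 6, the control arrays lay above the knockdown arrays without overlap, which held for 18.6% of all retained probes in either direction and for 9.83% in the lower direction. Because this contrast chose the family, and because GIMAP7 and GIMAP8 passed the filter through their control values alone, nothing is read from these counts. The samples are bulk RNA, in which fewer cells with a transcript and less of it per cell cannot be told apart.

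**Figure D1:**
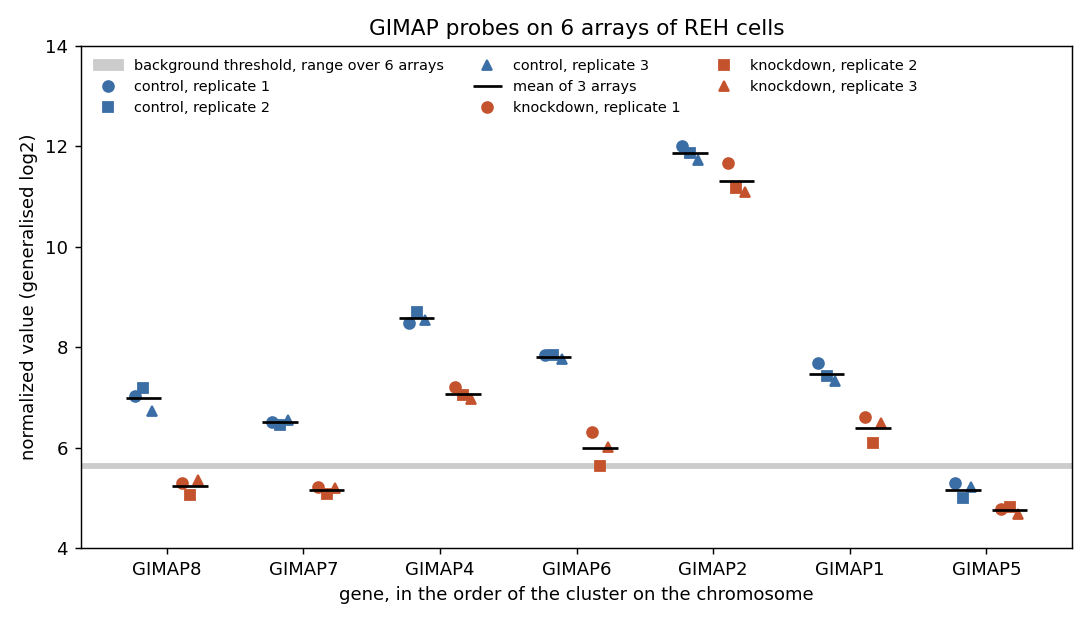
Normalized values (generalised log2, vertical axis) of the 7 GIMAP probes in the order of the cluster, with control arrays in blue, knockdown arrays in orange, symbols for replicates 1 to 3, black lines for the mean of 3 arrays and a grey band for the range of the background threshold, 5.60 to 5.67. GIMAP8, GIMAP7 and GIMAP5 sit under the band in knockdown, GIMAP5 also in control, and GIMAP2 is the probe whose groups come closest, 0.06 apart.

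GIMAP6, the family member linked to autophagy, had the largest change among the members that were above background in both groups. Its probe A_23_P145631 (NM_024711) had normalized log2 values of 7.84, 7.84 and 7.76 in control and of 6.31, 5.63 and 6.01 in knockdown. Control arrays were close together (mean 7.81 ± 0.05, SD, n = 3) and knockdown arrays were more spread (5.99 ± 0.34), with the lowest control array 1.45 above the highest knockdown array. The log2 fold change was -1.83 (SE 0.17), which is 3.55-fold lower, and it was -2.45 under 75th percentile scaling of the processed signal and -1.26 under normexp with quantile normalization. In raw median intensity, before any normalization, control spots read 233 to 247 and knockdown spots 66 to 105.5, of which the lowest came from knockdown replicate 2. On that array the normalized value of 5.63 was just above the background threshold of 5.62. The fold of GIMAP6 and its comparison with neighbours are thus also limited by dim signal.

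GIMAP8, the largest protein of the family with several GTP-binding domains, had values of 7.04, 7.18 and 6.73 in control and of 5.30, 5.07 and 5.36 in knockdown (probe A_24_P132383, NM_175571). Its probe was well above background on the 3 control arrays and on none of the knockdown arrays, so that only a lower bound can be given for its change. GIMAP8 was at least 2.99-fold lower in knockdown, a bound that holds for the normalization used here, as do those of other dim probes. For this bound, the control mean was compared with a knockdown mean in which each array contributed either the GIMAP8 value or the dimmest signal that the scanner software called well above background, whichever was higher. The measured means were 6.98 ± 0.23 and 5.24 ± 0.15 (SD, n = 3).

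GIMAP7, which forms dimers and hydrolyses GTP by itself and with other members, was likewise well above background in control only (probe A_24_P274831, NM_153236). Its values were 6.51, 6.45 and 6.56 in control and 5.22, 5.09 and 5.19 in knockdown. This probe had the narrowest spread of the retained members in knockdown (SD 0.07) with a control SD of 0.06, and GIMAP7 was at least 2.23-fold lower. The control level was near background, with raw intensities of 102, 102 and 117 against knockdown readings of 51.5 to 56.

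GIMAP4, a member that in T cells has been linked to the pace of cell death, remained above background on all 6 arrays (probe A_24_P209455, NM_018326). It had 8.48, 8.70 and 8.55 in control and 7.21, 7.05 and 6.96 in knockdown. Its log2 fold change of -1.50 (SE 0.11), or 2.83-fold lower, rested on means of 8.58 ± 0.11 and 7.07 ± 0.12 (SD, n = 3). The lowest control array lay 1.27 above the highest knockdown array.

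GIMAP1, which in mice is required for mature B and T lymphocytes, had 7.68, 7.42 and 7.32 in control and 6.61, 6.09 and 6.50 in knockdown (probe A_23_P427023, NM_130759). The means were 7.47 ± 0.19 and 6.40 ± 0.28 (SD, n = 3), a log2 fold change of -1.07 (SE 0.16) or 2.11-fold lower. In 7 of 16 alternative analyses it was not called, namely under spike-in scaling, without the filter, with a slide row term, and with the omission of control replicates 1 or 2 or of knockdown replicates 2 or 3.

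GIMAP2, which sits on lipid droplets, was the retained member with the smallest change. Its values were 12.00, 11.86 and 11.74 in control and 11.68, 11.17 and 11.10 in knockdown (probe A_23_P368681, NM_015660). Knockdown replicate 1 lay only 0.06 below the lowest control array, while the other two knockdown arrays were clearly lower. The log2 fold change of -0.55 (SE 0.17), or 1.46-fold lower, was not called, and it was called only when knockdown replicate 1 was left out (-0.73). With scaling on the spike-in probes the change shrank to -0.20.

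GIMAP5, which supports lymphocyte survival, was never well above background (probe A_23_P42588, NM_018384). Its raw intensities were 52.5, 47 and 56 in control and 44.5, 46 and 42 in knockdown, close to the medians of the negative controls, and no fold is given. All 6 normalized values were under the threshold for retention.

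Processing moved the size of some of these changes. Under 75th percentile scaling of the processed signal the log2 fold changes of the dim GIMAP8 and GIMAP7 were -4.38 and -3.82, and under normexp with quantile normalization they were -1.07 and -0.73. The 6 retained members had negative differences in all 16 alternatives, which is given as a description. With single arrays left out the change of GIMAP6 ran from -1.99 to -1.65 and that of GIMAP4 from -1.57 to -1.44. With slide row as a term, which rests on control replicate 3 as the only control in the row of the knockdown arrays, the log2 fold changes were -1.77 for GIMAP6, -1.49 for GIMAP8, -1.48 for GIMAP4, -1.39 for GIMAP7, -0.92 for GIMAP1 and -0.42 for GIMAP2.

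**Figure D2:**
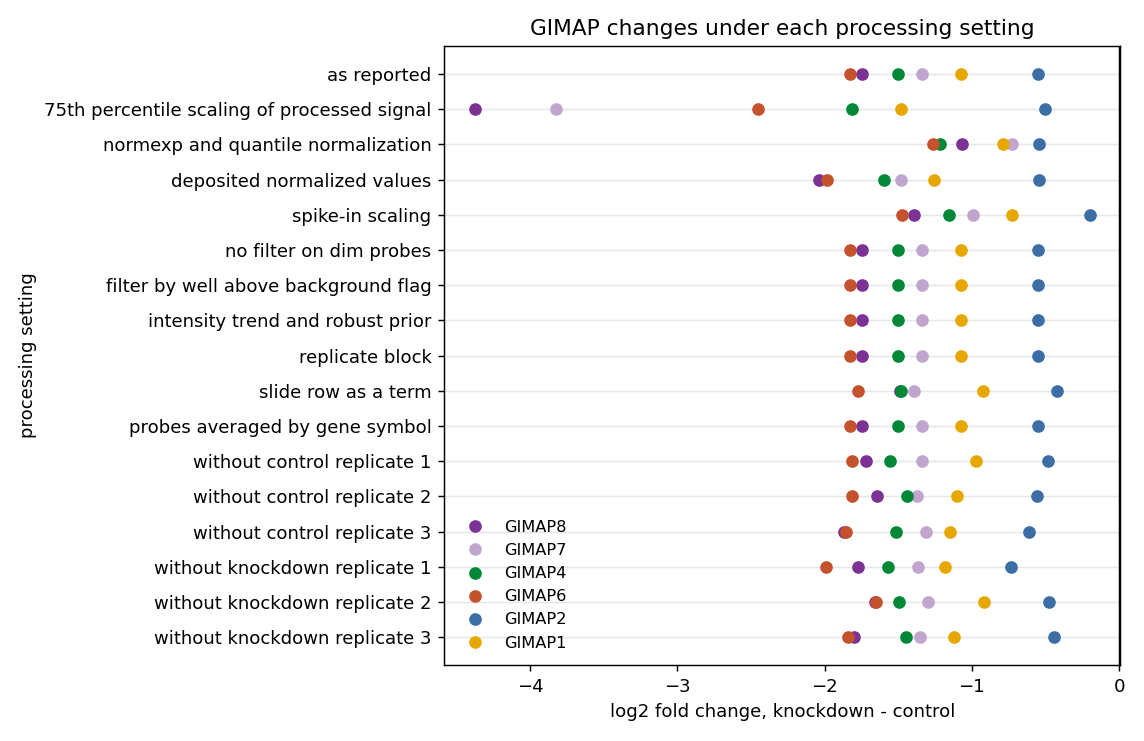
Log2 fold change of knockdown minus control (horizontal axis) of the 6 retained GIMAP probes as reported and under the 16 alternative settings (vertical axis), with 1 color per gene. All points lie left of 0, those of GIMAP2 closest to it, and the widest excursions are those of GIMAP8 (-4.38) and GIMAP7 (-3.82) under 75th percentile scaling.

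To compare GIMAP6 with its cluster neighbours, the mean of the other 5 retained GIMAP values was subtracted from the GIMAP6 value on each array. The result was -0.50, -0.48 and -0.42 in control and -0.89, -1.26 and -1.01 in knockdown, a shift of -0.59 from -0.47 ± 0.04 to -1.05 ± 0.19 (SD, n = 3). The size of this shift is not interpretable as it stands, since GIMAP7 and GIMAP8 were at background in knockdown and their own fall is only a lower bound. It was -0.053 under 75th percentile scaling and -0.39 under normexp with quantile normalization.

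The comparison was therefore repeated, after seeing the data, with the 3 neighbours that were well above background on all 6 arrays, GIMAP4, GIMAP1 and GIMAP2. GIMAP6 minus their mean was -1.54, -1.48 and -1.44 in control and -2.19, -2.47 and -2.17 in knockdown, without overlap. The difference between the groups was -0.78, and it was -1.19 under 75th percentile scaling and -0.41 under normexp with quantile normalization. Relative to these 3 neighbours the GIMAP6 value was lower in knockdown under each of these settings, by an amount that depended on the normalization. The subset leaves out GIMAP7 and GIMAP8, which fell to background in knockdown, and GIMAP6 was singled out in this same contrast. The larger shift than with all neighbours follows from that choice, and nothing is read from it.

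Next, GIMAP6 was set against single neighbours. The difference between its log2 fold change and that of GIMAP2 was -1.28, and it was -1.95 under 75th percentile scaling and -0.72 under normexp with quantile normalization. Against GIMAP1 it was -0.75, and under the same alternatives -0.97 and -0.47. Against GIMAP4 it was -0.32, with the control arrays just above the knockdown arrays, and it was -0.64 under 75th percentile scaling, -0.043 under normexp with quantile normalization and -0.16 without knockdown replicate 2. Against GIMAP7 and GIMAP8, which were at background in knockdown, the changes cannot be ordered, since these had only a lower bound.

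**Figure D3:**
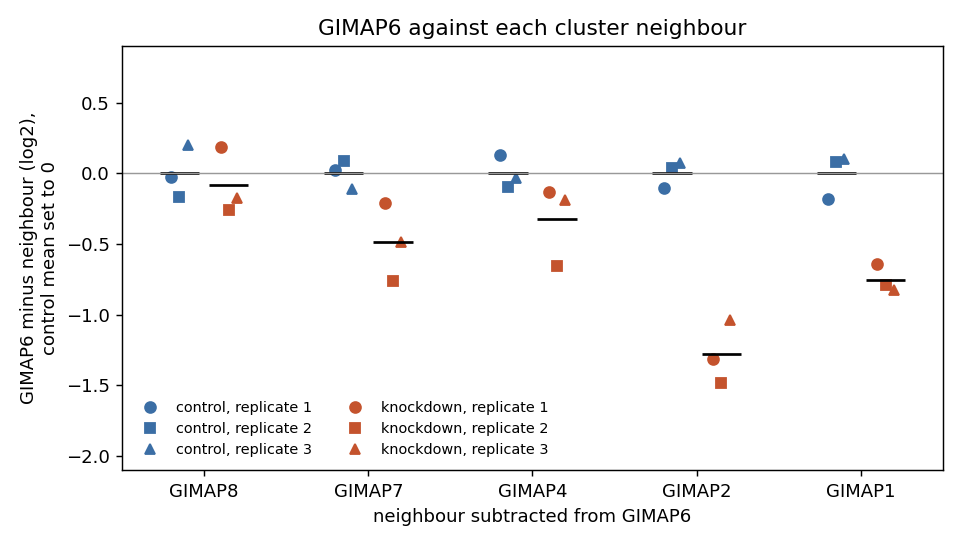
GIMAP6 value minus the value of each neighbour on the same array (log2, vertical axis), with the control mean set to 0, for control (blue) and knockdown (orange) arrays, symbols for replicates and black lines for the mean of 3 arrays. Knockdown arrays lie lowest for GIMAP2 (mean -1.28), and the GIMAP8 and GIMAP7 columns are limited by background, since these probes were not well above it on any knockdown array.

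Within the knockdown group, the members also differed from array to array. Among the members that were well above background on all knockdown arrays, GIMAP1, GIMAP2, GIMAP4 and GIMAP6, replicate 1 was the highest in each. Replicate 1 was also the highest knockdown array in 39.2% of all retained probes. In GIMAP6 it lay 0.33 above the group mean, in GIMAP2 0.36, in GIMAP1 0.22 and in GIMAP4 0.13. The knockdown arrays of GIMAP7 and GIMAP8 were not ordered, since their signals were at background.

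Replicate 1 of both groups was then compared with replicates 2 and 3 in a fit with group as a term, a contrast that the choice of the family did not use. Of the 6 GIMAP probes 0 were called, against 4.66% of all retained probes, and 2 (GIMAP2 and GIMAP1) had an unadjusted p under 0.05 in limma, as 23.0% of all retained probes had. GIMAP2 had the largest difference (0.37, SE 0.11, limma adjusted p = 0.102), followed by GIMAP1 (0.32, adjusted p = 0.192) and GIMAP6 (0.27, adjusted p = 0.326). GIMAP8 and GIMAP7, whose knockdown values were at background, had 0.08 and 0.04, and GIMAP4 had 0.02 (limma adjusted p from 0.777 to 0.923). With an intensity trend and a robust prior, 1 of the 6 probes was called, against 8.69% of all retained probes. These counts include GIMAP7 and GIMAP8, which passed the filter through their control values alone, so that nothing is read from them.

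To see how far the lower values reached along the chromosome, genes next to the cluster were examined in RefSeq order. In that order the cluster runs from GIMAP8 over GIMAP7, GIMAP4, GIMAP6, GIMAP2 and GIMAP1 to GIMAP5, with GIMAP6 on the opposite strand to the others. Of the 10 genes on each side, 8 had a catalogue probe and 4 were retained. Of these 4, 0 were called, against 1.56% of all retained probes, and the median log2 fold change was 0.05. None of the 4 had an unadjusted p under 0.05 in limma either, as 3530 of the 28997 retained probes (12.2%) had.

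On the GIMAP8 side, ZNF775, a zinc finger gene, was the nearest gene with a retained probe, with a change of 0.03 on the log2 scale (SE 0.09, limma adjusted p = 0.918). On the GIMAP5 side, TMEM176A, a membrane protein gene, had 0.05 (SE 0.16, limma adjusted p = 0.933) and KCNH2, a potassium channel gene, had 0.05 (SE 0.11, limma adjusted p = 0.894). NOS3, endothelial nitric oxide synthase, had 0.21 with a wide error (SE 0.33, limma adjusted p = 0.846). TMEM176B and LINC00996, which lie nearer to the cluster, stayed at background.

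Since many of these flanking genes are not protein coding, the 10 nearest protein-coding genes on each side were added after seeing the data. Of their 20 probes 15 were retained, from 13 genes, with a median of 0.05 and 3 probes with a negative change. By limma 0 were called, against 1.56% of all retained probes. An unadjusted limma p under 0.05 was found for 3 probes, all of them higher, against 12.2% of all retained probes. The largest change was that of ATP6V0E2, a subunit of the vacuolar proton pump, which was 0.50 (SE 0.11, limma adjusted p = 0.0859). Under spike-in scaling, which raises all differences of knockdown minus control, 1 of the 15 probes was called.

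**Figure D4:**
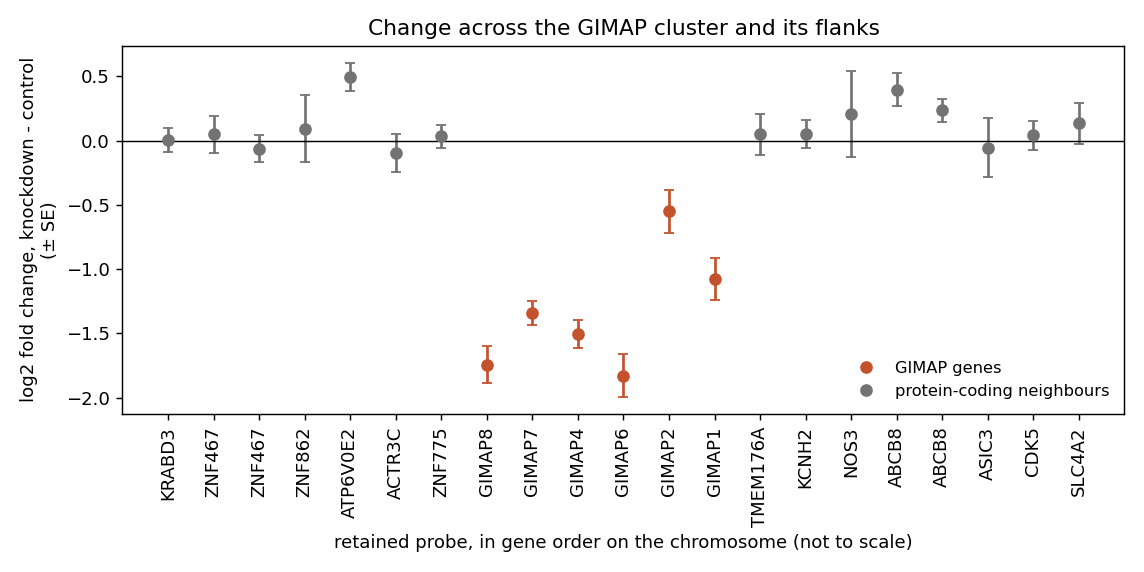
Log2 fold change of knockdown minus control (vertical axis, bars ± SE) of retained probes of GIMAP genes (orange) and of the nearest protein-coding genes on each side (grey), in gene order and not to scale. All GIMAP probes lie between -1.83 and -0.55, and the flanking probes lie between -0.10 and 0.50.

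Genes that work with GIMAP proteins were examined next. Among 38 genes of ATG8 proteins and the autophagy core, 50 probes were retained, of which 2 were called higher and 0 lower (4%, against 1.56% of all retained probes), with a median of 0.05. One probe of ATG13, a subunit of the kinase complex that starts autophagosome formation, rose by 0.78 (SE 0.10, limma adjusted p = 0.00955), from 8.90 ± 0.09 to 9.67 ± 0.06 (SD, n = 3), whereas the other ATG13 probe had 0.13 (SE 0.11, limma adjusted p = 0.686). One probe of ATG12, a ubiquitin-like conjugation factor, rose by 0.59 (SE 0.09, limma adjusted p = 0.0237), from 6.42 ± 0.08 to 7.02 ± 0.03. The other ATG12 probe had -0.04 (SE 0.10, limma adjusted p = 0.911), so that the probes of both genes disagreed.

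GABARAPL2, the partner of GIMAP6, had a difference of 0.02 on the log2 scale (SE 0.11, limma adjusted p = 0.957). PIK3C3, the lipid kinase of the pathway, had -0.64 (SE 0.12) and 1 of 2 probes of GABARAPL1, a close relative of GABARAPL2, had -0.58 (SE 0.20), and neither was called (limma adjusted p = 0.0529 and 0.278). The other GABARAPL1 probe had -0.14 (limma adjusted p = 0.686). With the replicate number as a block, the first 2 were called (limma adjusted p = 0.0277 and 0.0331), so that 2 probes were higher and 2 lower. Both calls of the list disappeared with a slide row term, with probes averaged by gene symbol, and without control replicate 2 or knockdown replicate 3. The count of called probes was 1 without control replicate 1, control replicate 3 or knockdown replicate 2, and 3 without knockdown replicate 1.

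The BCL2 family and GSK3 list holds survival factors that GIMAP proteins have been reported to bind or act with. In it limma called 0 of 14 retained probes, against 1.56% of all retained probes. An unadjusted limma p under 0.05 was found for 0 of them, against 12.2% of all retained probes, and the median was 0.04. The BCL2 probe with the larger change, for an inhibitor of apoptosis, had 0.22 (SE 0.11, limma adjusted p = 0.498), and that of the death-promoting BCL2L11 had 0.20 (SE 0.13, limma adjusted p = 0.587). Among the septins, structural relatives of the GIMAP GTPases, limma called 0 of 18 retained probes, against 1.56% of all retained probes. An unadjusted limma p under 0.05 was found for 2 of them, against 12.2% of all retained probes, and the median was -0.02. The SEPTIN9 probe with the largest change had 0.36 (SE 0.14, limma adjusted p = 0.369) and SEPTIN1 had 0.33 (SE 0.10, limma adjusted p = 0.219). In neither list was a probe called in any of the 16 alternatives.

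Because GIMAP genes are active in other blood and vessel cells, markers of such cells were measured in the same fit. In the T and NK cell list, 19 of 29 probes were retained and 0 were called, against 1.56% of all retained probes, with a median of 0.03. An unadjusted limma p under 0.05 was found for 3 of them, all higher, against 12.2% of all retained probes. The summed level of all 29 probes, on a linear scale, was 33114 to 37526 in control and 32059 to 37041 in knockdown, and 68.5% of the control sum came from IL7R, a receptor that B-cell precursors also carry. IL7R (14.54 in control and 14.44 in knockdown), CD4 (12.34 and 12.44), BCL11B, LAT, CD247 and LCK each had a probe well above background on all 6 arrays, and none was called. Probes of CD3E, CD3G, CD7, GNLY, KLRB1 and KLRD1 were not well above background on any array, and CD3D had 6.92 ± 0.21 and 6.87 ± 0.20 (SD, n = 3). The largest changes were those of 1 of 2 probes of ZAP70, a signalling kinase, with 0.90 (SE 0.21, limma adjusted p = 0.112, and 0.0484 with the block), whereas the other had 0.14, and of CD2, an adhesion receptor, with 0.69 (SE 0.40, limma adjusted p = 0.548).

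Some myeloid and endothelial markers were lower where the GIMAP genes were lower. Of 18 probes 13 were retained, from 10 genes. Of these 13 probes, 5 were called lower (38.5%, against 1.16% of all retained probes) and 0 higher, with a median of -0.58. EMCN and a probe of FCN1 passed the filter through their control values alone, and PECAM1 gave several of the calls. For this reason nothing is read from this share. The summed linear level of all 18 was 3638 to 4794 in control and 1856 to 2584 in knockdown, with 55.2% of the control sum from CSF3R. CSF3R, the receptor of granulocyte colony-stimulating factor, fell by 1.58 on the log2 scale (SE 0.29, limma adjusted p = 0.0435). PECAM1, an adhesion molecule of endothelial and blood cells, was covered by 3 probes. One of these fell by 1.13 (SE 0.16, limma adjusted p = 0.0138), one was at least 1.60-fold lower (limma adjusted p = 0.0169), and the other one, with -1.14 (SE 0.22), was not called (limma adjusted p = 0.0520, and 0.0444 with the block).

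EMCN, an endothelial sialomucin, was at least 1.65-fold lower (limma adjusted p = 0.0276) and CD68, a macrophage lysosomal protein, fell by 0.58 (SE 0.10, limma adjusted p = 0.0316). The retained probes of VWF (0.13), ITGAM (0.07), CDH5 (0.02), CSF1R (-0.05) and CD14 (-0.13) were not called and had small differences, and those of FCN1 had -0.62 and 0.09 and were not called either. Probes of S100A8, S100A9, CD33 and KDR, which define neutrophils, myeloid cells and endothelium, were not well above background on any array. The count of 5 dropped to 0 with the slide row as a term or without control replicate 2, control replicate 3 or knockdown replicate 2, and to 2 and 1 without control replicate 1 and knockdown replicate 3. The part of these genes in the GIMAP result was not tested.

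In the list of B-cell precursor markers, 24 of 26 probes were retained and 0 were called, against 1.56% of all retained probes, with a median of 0.22. Among them 8 higher and 1 lower had an unadjusted p under 0.05 in limma (12.2% of all retained probes had). The summed linear level of all 26 was 382862 to 399332 in control and 444717 to 502990 in knockdown. With the replicate block, which called 3.06% of all retained probes, 4 probes were called higher, 2 of IGLL1, the surrogate light chain (0.68 and 0.53, limma adjusted p = 0.0174 and 0.0462 with the block), and 1 each of CD22 and CD79B, parts of B-cell receptor signalling (0.67 and 0.55, limma adjusted p = 0.0333 and 0.0449 with the block). Without the block these 4 probes had limma adjusted p from 0.0599 to 0.235. No probe of this list was called lower.

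Finally, the genes whose values were most like those of GIMAP6 over the 6 arrays were listed by Pearson's r, as a description. The arrays share 1 slide and fall into the same groups as GIMAP6, so that genes which differ between the groups rank high. CNEP1R1, a phosphatase regulatory subunit, came first (r = 0.9998, log2 fold change -0.28), followed by RNF7, a ubiquitin ligase subunit (r = 0.998, -0.45), MPO, the myeloperoxidase of neutrophil granules (r = 0.997, -2.02), CREB3L2, a transcription factor (r = 0.995, -0.49), and LARP7, an RNA-binding protein (r = 0.995, -0.14).

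Of the GIMAP genes, GIMAP7 ranked 30 (r = 0.985), GIMAP8 49 (r = 0.982), GIMAP4 54 and GIMAP1 55 (both r = 0.981), and GIMAP2 ranked 681 (r = 0.887). MPO was the only one of the first 5 with a change of the size of that of GIMAP6, with values of 14.02, 13.97 and 13.86 in control and of 12.30, 11.68 and 11.81 in knockdown.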

How the data were processed

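Total RNA of 6 REH samples was labelled with Cy3 and hybridised to 1-color custom Agilent arrays. The deposited scanner files hold spot intensities that the authors extracted with Feature Extraction 10.7.1.1 per the file headers, not normalized between arrays, together with other values, namely flags of each spot. The authors also deposited normalized log2 values of 27869 probes, used here as an alternative. These correlated with the values computed here at r = 0.9991 to 0.9997 per array.

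Raw median intensities of all spots were normalized by a variance-stabilizing model (VSN), rewritten here as an inverse hyperbolic sine fit with the 0.9 quantile of least squares kept. The resulting generalised log2 values understate changes of dim probes. Of the values of the 308 negative control spots the 0.95 quantile was taken and multiplied by 1.1. Retained probes exceeded this threshold (5.60 to 5.67) on 2 of 3 arrays in either group, that is on at least 60%. A total of 72 probes with an outlier flag were left out, and 28997 remained. Symbols came from RefSeq accessions (25728 of 34134 catalogue probes). Promoter sequences are those of RefSeq, and the array design predates this assembly.

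Groups were taken from the labels. Differences were tested in R 4.3.3 with limma 3.58.1 (lmFit, eBayes, two-sided), without a block since the methods name none, and adjusted by Benjamini-Hochberg over all retained probes. Called probes are those with an adjusted p under 0.05. P-values measure the spread between these samples, which the study calls biological triplicates. With 3 arrays against 3, an exact permutation test cannot give a p under 0.1. Replicate numbers are those of the labels. Deviations of samples with the same number were correlated (r = 0.396, 0.255 and 0.190 for replicates 1 to 3). The highest r with a knockdown sample of another number was -0.270, 0.179 and 0.154. Pairing by number was thus plain for replicate 1 only and slight for replicates 2 and 3. The fit with the replicate block is given where it changes a call. The scripts were checked on simulated arrays with known changes.

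The members, gene lists, tests and alternatives were chosen with earlier results of these data known. Named genes are the GIMAP genes, the nearest retained and any called flanking genes, the 5 genes most correlated with GIMAP6, per list the called genes and those with the largest changes, and ETV6. Genes named outside this rule, namely markers not well above background or used to check the line, GABARAPL2, NOS3, ATP6V0E2, CD79B, CD3D, GABARAPL1 and the uncalled markers of other cell types, were chosen after their values were seen or as background. There were 16 alternatives: other normalizations and scalings, filters, a prior with trend, the replicate block, slide row, averaging by symbol, and leaving out each array. Custom probes within the cluster and GIMAP protein sequences were not analysed here.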

Additional observations from a re-analysis of the deposited data

How the results depend on the processing

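The 6 retained GIMAP probes were lower in knockdown under all 16 alternatives, and the number called was 4 to 6 with single arrays left out. As a description, GIMAP6, GIMAP8, GIMAP4 and GIMAP7 were called under all 16, GIMAP1 under 9 and GIMAP2 under 1, in the contrast that chose the family. The number of all probes called, 451, was 886 under spike-in scaling, 224 without the filter, 887 with the replicate block, 246 with the slide row as a term, and 193 to 494 with single arrays left out. Spike-in scaling moved the median of all probes to 0.35 and the split to 154 lower and 732 higher. GIMAP6 minus its neighbours, -0.59, was -0.78 with the 3 neighbours measured on all arrays (chosen after seeing the data), -0.053 under 75th percentile scaling, -0.39 under normexp with quantile normalization, and -0.67 to -0.48 with single arrays left out. The cause of these shifts was not tested.

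Of the gene lists, the myeloid and endothelial count of 5 became 2 under 75th percentile scaling, spike-in scaling or no filter, 3 under normexp, 0 with the slide row, and 0 to 6 with single arrays left out. For B-cell precursor markers, a count of 0 became 5 under spike-in scaling, 4 with the replicate block, 1 under normexp, the well above background filter or the intensity trend, and 0 to 1 with single arrays left out. T and NK cell markers went from 0 to 3 under spike-in scaling, 1 with the block and 0 to 1 with single arrays left out. The autophagy count of 2 became 4 with the replicate block, 1 without the filter, 0 with the slide row or with probes averaged by symbol, and 0 to 3 with single arrays left out. In the contrast of replicate 1 with the others, the GIMAP count of 0 became 1 with the intensity trend. Flanking genes, septins and the BCL2 list stayed at 0 throughout, except 1 protein-coding flanking probe under spike-in scaling. The replicate block changed no other call of a GIMAP, flanking or ETV6 probe. Signal over background limits GIMAP5 altogether and GIMAP7 and GIMAP8 in knockdown.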
